A study of Mus musculus with 6 samples.

Results

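Transcripts of the BCL2 family, the proteins that decide whether the mitochondrial pathway of apoptosis is set off, were examined in mouse osteoclasts grown with and without verapamil. The 10 genes were chosen by name: the antiapoptotic Bcl2, Bcl2l1, Mcl1 and Bcl2a1b, the pore-forming Bax and Bak1, and the BH3-only Bad, Bid, Bcl2l11 and Bbc3. All 10 were found among the 16775 genes of the table, and all 10 passed the filter on low counts that left 12619 genes for testing. The verapamil group comprised 3 libraries of osteoclasts exposed to verapamil, a blocker of L-type calcium channels, and the control group 2 libraries (replicates 1 and 3) of osteoclasts with no drug named. Cells of both groups came from wild-type mouse marrow macrophages given 30 ng/ml M-CSF and 50 ng/ml RANKL, and the titles state day 5 although the protocol runs to day 7. The labels give no dose or timing of the drug, no sex or age of the mice, and nothing that ties the replicates to separate animals or cultures, so the spread between libraries may be technical. Control replicate 2 was not analysed here.

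Osteoclasts are short-lived cells whose survival depends on M-CSF and RANKL. In the mitochondrial pathway, BH3-only proteins carry the stress signal, antiapoptotic proteins bind and restrain them together with the pore formers, and BAX or BAK, once free, permeabilise the outer mitochondrial membrane so that cytochrome c leaves and caspases are activated. In osteoclasts the BH3-only protein BIM, encoded by Bcl2l11, is known to be kept low by M-CSF through ubiquitination by Cbl proteins, a control that transcript counts do not show.

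With verapamil, 1 of the 10 genes passed the test, Bid, and it was higher. That is 1 gene in 10, where 25.4% of all tested genes passed at an adjusted p of 0.05 (edgeR quasi-likelihood test with Benjamini-Hochberg adjustment). Genes called higher made up 9.99% of those tested, and genes called lower 15.4%. In 5 of the 10 genes the verapamil and control libraries did not overlap, 4 of them higher (Mcl1, Bcl2a1b, Bid and Bbc3) and 1 lower (Bcl2). Over all tested genes 56.7% did not overlap, 27.7% higher and 29% lower. The median log2 fold change of the 10 genes was 0.18, beside -0.01 over all tested genes. The libraries were of like depth, 20202340 to 21494523 estimated counts, and every one of the 12 osteoclast marker genes listed was detected. Their summed level was 3363 to 3512 CPM (counts scaled to a common library size with TMM factors) in verapamil libraries, against 7112 and 7808 CPM in controls. The list did not move as one: 9 of the 12 were lower, Itgb3 and Nfatc1 were not called, and Atp6v0d2, a proton pump subunit, was higher (1028 ± 16.9 CPM with verapamil, n = 3, and 522 ± 43.1 CPM in controls, n = 2, SD; log2 0.98, edgeR adjusted p = 0.00159). In bulk RNA, fewer cells of a type and less RNA per cell cannot be told apart.

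**Figure D1:**
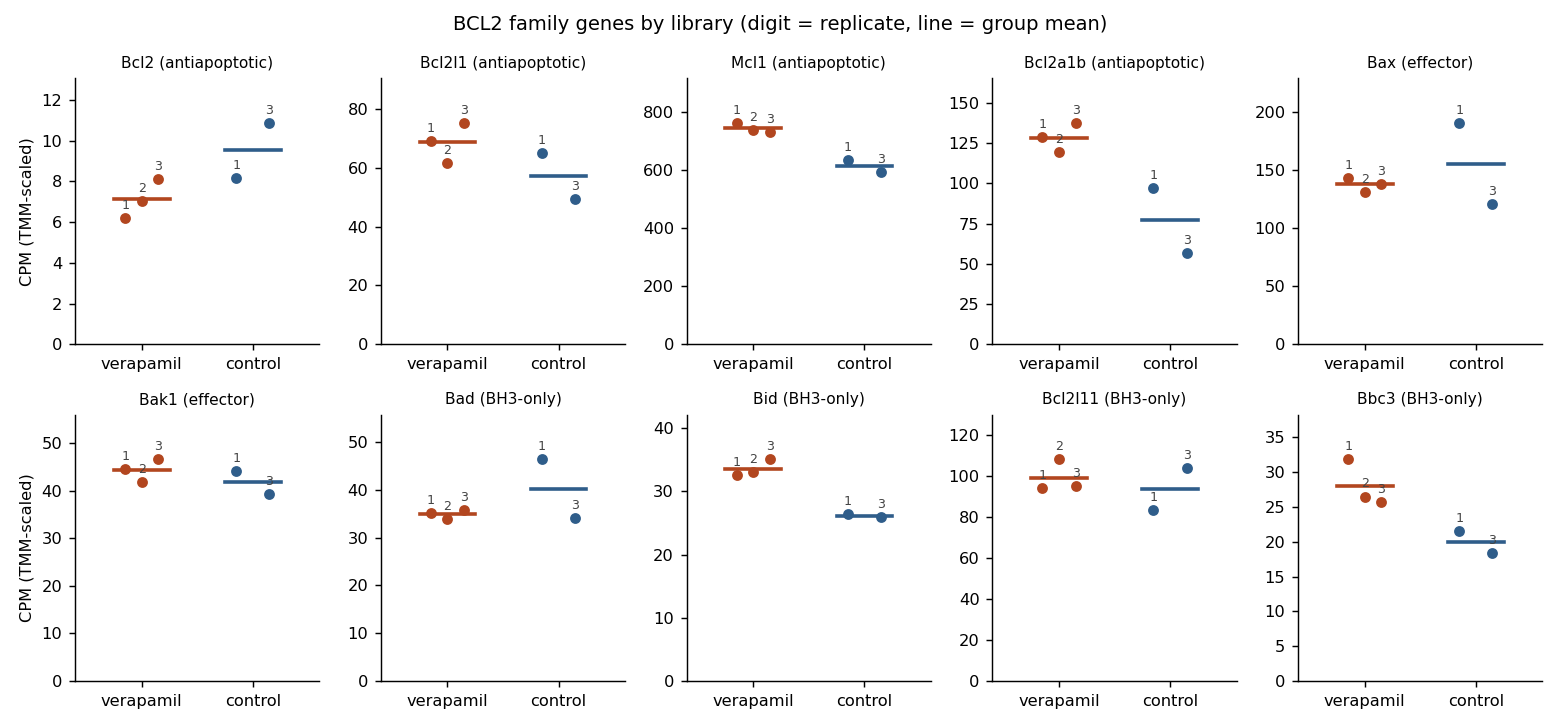
CPM of each of the 10 genes (vertical axes, each from 0) in the 3 verapamil and 2 control libraries, with points numbered by replicate and lines at the group means. The groups are apart for Bcl2, Mcl1, Bcl2a1b, Bid and Bbc3, and the controls of Bax lie on either side of the verapamil libraries, at 191 and 120 CPM.

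Among antiapoptotic genes, Mcl1 was the most abundant. MCL1 is a labile protein that restrains BAK and BIM. Its transcript had 762, 737 and 731 CPM in verapamil libraries, against 633 and 593 CPM in controls. All verapamil libraries were above both controls, by a log2 fold change of 0.28 (SE 0.0908), which did not pass (edgeR adjusted p = 0.0697). The 95% interval of the difference, 0.06 to 0.50 on the log2 scale, puts the ratio at 1.04 to 1.41. Bcl2l1, which encodes BCL-XL, had 69.3, 61.8 and 75.3 CPM with verapamil, against 64.9 and 49.3 CPM in controls, and these groups overlapped (log2 0.27, edgeR adjusted p = 0.242). Bcl2, the founding member, was scarce, at 6.20, 7.02 and 8.13 CPM in verapamil libraries and 8.18 and 10.9 CPM in controls. Its groups were separated by less than the spread within either of them, and the difference of -0.42 (SE 0.189) did not pass (edgeR adjusted p = 0.150).

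Bcl2a1b, one of several copies that encode the antiapoptotic protein A1, had the largest difference of the 10 genes. It had 129, 119 and 138 CPM in verapamil libraries, against 97.2 and 56.9 CPM in controls. The verapamil libraries were all higher, but control 1 exceeded control 3 by 1.71 times, and the log2 fold change of 0.74 (SE 0.227) did not pass (edgeR adjusted p = 0.0597). Reads of this gene are hard to assign, because the copies on chromosome 9 are nearly the same. The coding sequences of Bcl2a1b and Bcl2a1a differ at 11 of 516 bases, those of Bcl2a1b and Bcl2a1d at 6. The first 60 coding bases hold 6 of the 12 positions at which these copies differ. They were picked because no other stretch of 60 holds more, so the rest of the coding sequence is more alike. They are shown for the letters that tell the copies apart (GENCODE M21 transcripts, GRCm38, chromosome 9, 5′ to 3′, with the differing positions in capitals).
Bcl2a1b: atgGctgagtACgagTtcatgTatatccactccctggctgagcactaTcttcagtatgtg
Bcl2a1a: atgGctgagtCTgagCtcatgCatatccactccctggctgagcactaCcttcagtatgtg
Bcl2a1d: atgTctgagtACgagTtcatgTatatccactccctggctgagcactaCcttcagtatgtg

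Of all stretches of 100 bases in the Bcl2a1b transcript, 31.1% occur unchanged in another copy, and of stretches of 150 bases 14.2% do. The read length is not given in the sources used here. Summing Bcl2a1a, Bcl2a1b, Bcl2a1c and Bcl2a1d removes the effect of reads given to the wrong copy. It does not restore shared reads that may have been left uncounted, as the counting program is not stated. The sum was 144, 134 and 156 CPM in verapamil libraries, against 113 and 66.7 CPM in controls, with Bcl2a1b holding 85.3% to 89.4% of it. Its log2 fold change was 0.69 (SE 0.224), again short of the threshold (edgeR adjusted p = 0.0701, chosen after the data were seen). A further 49.1% of the exon bases of Bcl2a1b are shared with the transcript Gm29094 on the same strand.

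The pore formers showed no change that passed the test. BAX moves to mitochondria on activation, and its transcript had 143, 131 and 138 CPM in verapamil libraries, against 191 and 120 CPM in controls. The verapamil values lay between the controls (log2 -0.18, edgeR adjusted p = 0.515), and the 95% interval of the ratio was 0.640 to 1.22. BAK, which sits in the outer membrane already, had transcript levels of 44.6, 41.8 and 46.6 CPM with verapamil and 44.1 and 39.4 CPM in controls. Bak1 had the narrower interval, a ratio of 0.880 to 1.28 (log2 0.09, edgeR adjusted p = 0.589), although 25.5% of its exon bases lie opposite exons of Ggnbp1.

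Of the BH3-only genes, Bid was called. BID is cleaved by caspase 8 and so links death receptors to mitochondria. It had 32.6, 33.1 and 35.0 CPM in verapamil libraries, against 26.4 and 25.9 CPM in controls, a ratio of 1.28 with a 95% interval of 1.08 to 1.53. Both groups were tight, and the controls differed by 1.02 times. The log2 fold change was 0.36 (SE 0.104, edgeR adjusted p = 0.0491). This call stood just inside the threshold. It was lost under 7 of 12 alternatives, among them upper quartile scaling (log2 0.24, adjusted p = 0.149), testing without a count filter (0.0629) or with a minimum count of 30 (0.0617), a replicate block (0.228) and the loss of any verapamil library (0.143 to 0.222). On GRCm38 Bid lies on chromosome 6 at 120893119 to 120917062, and 17.7% of its exon bases lie opposite exons of its neighbour Bcl2l13, which had 49.6, 53.8 and 49.6 CPM with verapamil and 33.8 and 52.7 CPM in controls (log2 0.24, edgeR adjusted p = 0.389).

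Bbc3 encodes PUMA, a BH3-only protein that p53 and FOXO factors can induce. It had 31.8, 26.5 and 25.7 CPM in verapamil libraries, against 21.6 and 18.4 CPM in controls. All verapamil libraries were higher, by a log2 fold change of 0.49 (SE 0.146), which missed the threshold (edgeR adjusted p = 0.0550). Bcl2l11 had 94.3, 108 and 95.1 CPM with verapamil, against 83.6 and 104 CPM in controls. Its groups overlapped, and the interval of its ratio ran from 0.845 to 1.32 (log2 0.08, edgeR adjusted p = 0.678). Bad, whose protein is held inactive by phosphorylation, had 35.2, 34.0 and 35.7 CPM in verapamil libraries and 46.4 and 34.2 CPM in controls. Control 3 lay among the verapamil libraries and control 1 above them (log2 -0.20, edgeR adjusted p = 0.344).

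**Figure D2:**
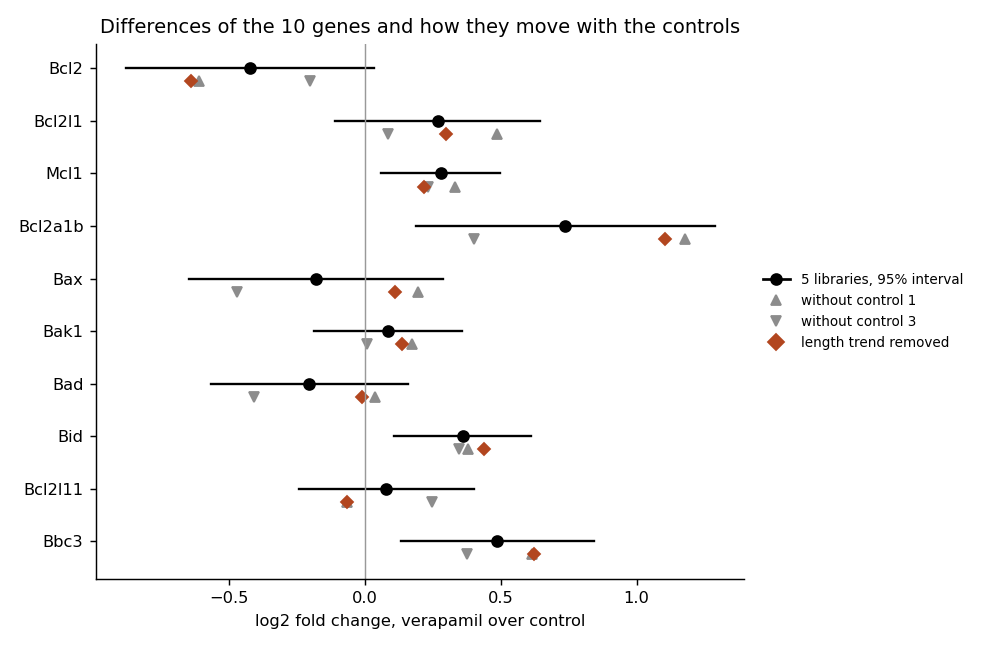
Log2 fold change of verapamil over control for the 10 genes (black, with 95% intervals from the edgeR test), and the same without control 1 or control 3 and with the trend on transcript length removed. Bax stands at -0.47 without control 3 and at 0.20 without control 1, whereas Bid stays between 0.35 and 0.44.

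The controls differed from each other by more than the groups did for Bcl2l1, Bcl2a1b, Bax, Bak1, Bad and Bcl2l11. The verapamil libraries spread by 1.04 times (Mcl1) to 1.31 times (Bcl2) between highest and lowest, the controls by 1.02 times (Bid) to 1.71 times (Bcl2a1b). The difference between controls ran with transcript length. The short transcripts of Bcl2a1b, Bax and Bad (817, 1100 and 1533 bases) were higher in control 1 than in control 3, by 1.71, 1.58 and 1.36 times. The long transcripts of Bcl2l11 and Bcl2 (5036 and 7191 bases) were at 0.803 and 0.751 of the control 3 level. Across the 10 genes the Spearman correlation of length with the ratio of the controls was -0.88, and across 12360 tested genes with a known length and counts in both controls it was -0.67. These describe 1 pair of libraries, and genes are not independent replicates. Genes under 1 kb had a median log2 ratio of control 1 over control 3 of 0.73 and genes over 4 kb one of -0.42. The median log2 fold change of verapamil over control was -0.37 and 0.17 in the same classes.

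**Figure D3:**
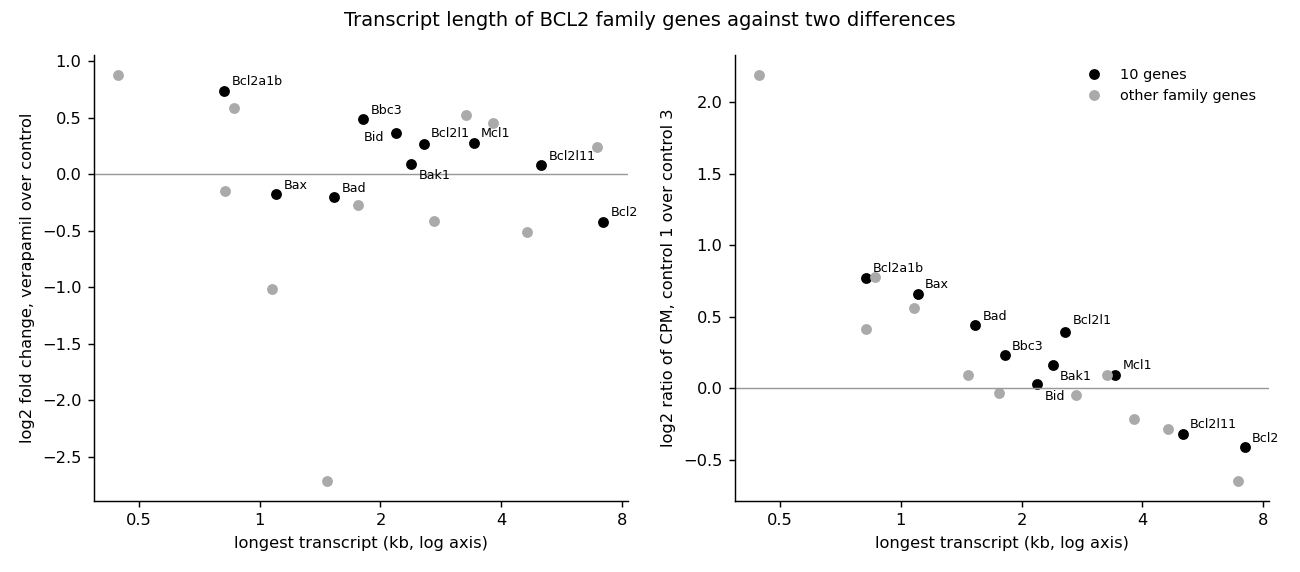
Longest transcript (kb, log axis) of the BCL2 family genes tested, against the log2 fold change of verapamil over control (left) and against the log2 ratio of control 1 over control 3 (right), with the 10 genes in black. On the right the black points run from 0.77 for Bcl2a1b to -0.41 for Bcl2, and the other family genes from 2.19 for Bcl2a1c to -0.64 for Bcl2l13.

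With the trend on length removed from each library, 4 of the 10 genes passed, and 39.1% of all tested genes did. Bcl2a1b was then higher by 1.10 (edgeR adjusted p = 5.3e-05), Bbc3 by 0.62 (adjusted p = 0.0035) and Bid by 0.44 (adjusted p = 0.00835), and Bcl2 was lower, by -0.64 (adjusted p = 0.00704). DESeq2's Wald test called Bcl2a1b, Bid and Bbc3, 3 of the 10 genes against 27.9% of all genes. Without control 1, 6 of the 10 genes passed (35.3% of all genes), and without control 3, 7 did (60.9% of all genes). With 1 control those p-values hold no spread between controls. Bax was lower without control 3 (log2 -0.47, edgeR adjusted p = 0.000744) and at 0.20 without control 1 (adjusted p = 0.0871), so its direction depended on which control was kept. Bcl2l11 was higher without control 3 (log2 0.25, adjusted p = 0.0487) and at -0.065 without control 1. Mcl1, Bcl2l1, Bcl2a1b, Bid and Bbc3 stayed above the controls in each of the 12 alternatives, and Bcl2 below.

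Per kb of the longest transcript, 3 genes dominated the family. In verapamil libraries Mcl1 had 218 ± 4.78 CPM per kb, Bcl2a1b 157 ± 11.3 and Bax 125 ± 5.62 (SD, n = 3), levels that did not overlap. In controls Mcl1 had 179 ± 8.29 CPM per kb, Bax 141 ± 45.1 and Bcl2a1b 94.3 ± 34.9 (SD, n = 2). Bax and Bcl2a1b lay within their spread between libraries, but Bax was above Bcl2a1b in each control. Their shares of the summed level were 29.2% and 20.1% in control 1, and 24.1% and 15.3% in control 3. The next 6 genes ran from 26.8 CPM per kb for Bcl2l1 to 15.3 for Bid with verapamil, and from 26.3 for Bad to 11.01 for Bbc3 in controls. With verapamil Bcl2l1 and Bad stood apart from each other and from the rest, and the order of Bcl2l11, Bak1, Bbc3 and Bid held neighbours that overlapped. Between controls Bad, Bcl2l1, Bcl2l11 and Bak1 overlapped in turn, as did Bid and Bbc3 below them. Within each control, though, Bad was above Bcl2l1 and Bid above Bbc3. Bcl2 came last, at 0.990 ± 0.135 CPM per kb with verapamil and 1.33 ± 0.266 in controls. These levels use the longest annotated transcript. With coding length Bcl2l11, whose untranslated regions are long, took 9.67% of the summed level with verapamil instead of 3.19%, and in controls 10.8% instead of 3.67%. It then had 169 CPM per kb with verapamil and 160 in controls, where Bcl2a1b had 149. With verapamil Bcl2a1b (249 ± 17.9) and Bax (239 ± 10.7) then overlapped.

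The 4 antiapoptotic genes made up 64.7%, 64.8% and 65.5% of the summed level per kb of the 10 genes in verapamil libraries, against 55.7% and 58.0% in controls. The pore formers held 23.6%, 22.9% and 23.0% with verapamil, against 32.3% and 27.7% in controls. The BH3-only genes held 11.7%, 12.3% and 11.5% with verapamil and 11.9% and 14.3% in controls. The mean difference of the antiapoptotic share was 8.12 percentage points, or 5.95 with coding length. Such shares compare transcripts within a library and were not tested, since the genes were summed after earlier results were known. Bcl2a1b held 25.4% of the sum on average with verapamil and 17.7% in controls, and Bax 20.2% and 26.6%. Mcl1 held 35.1% with verapamil and 34.7% in controls, Bcl2l1 4.32% and 4.24%, and Bcl2 0.160% and 0.262%. The higher antiapoptotic share thus lay mostly with Bcl2a1b, which did not pass the test, and not with the class as a whole. The ratio of Bcl2a1b to Bax CPM, both short transcripts, was 0.897, 0.910 and 0.998 in verapamil libraries, against 0.510 and 0.473 in controls, a pair picked after its values were seen. The ratio of Bcl2l11 to Mcl1, the BH3-only gene to its main antiapoptotic partner by level, was 0.124, 0.147 and 0.130 with verapamil and 0.132 and 0.176 in controls, and overlapped.

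**Figure D4:**
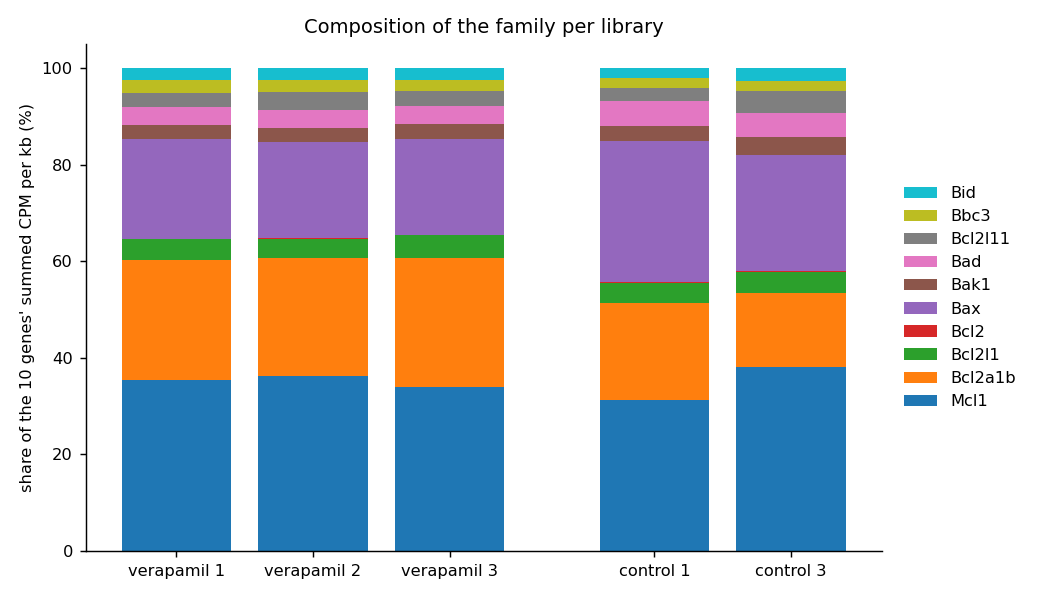
Share of each of the 10 genes in their summed CPM per kb (%, longest transcript) in every library, with antiapoptotic genes at the bottom, pore formers above them and BH3-only genes on top. Antiapoptotic genes end at 64.7% to 65.5% in verapamil libraries and at 55.7% and 58.0% in controls.

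The rest of the family, taken from a list of 16 further genes, had 2 of 11 tested genes higher and 4 lower (54.5% called, beside 25.4% of all genes; median log2 -0.15). Without any 1 of the verapamil libraries 1 of the list was called. Bok, a BAX-like protein, had 0.492, 0.516 and 0.592 CPM with verapamil, against 3.64 and 3.42 CPM in controls (32 and 161 counts in all). It fell by 2.71 on the log2 scale (SE 0.223, edgeR adjusted p = 0.000870), a call kept under all 12 alternatives. Summed stromal and osteoblast markers were lower in the same direction, at 454 to 473 CPM in verapamil libraries and 1045 and 1234 CPM in controls (9 of 11 tested lower), with 14 of 14 detected and their part in the fall of Bok not tested. Pmaip1, which encodes the BH3-only protein NOXA that targets MCL1, had 31.4, 33.9 and 33.2 CPM with verapamil, against 43.2 and 44.5 CPM in controls (log2 -0.42, edgeR adjusted p = 0.0286). Bmf, a BH3-only gene tied to the cytoskeleton, had 18.2, 19.6 and 16.2 CPM with verapamil and 23.2 and 28.2 CPM in controls (log2 -0.51, edgeR adjusted p = 0.0421). Bcl2l12 also fell, to 2.40 ± 0.375 CPM in verapamil libraries against 4.86 ± 1.32 CPM in controls (log2 -1.02, edgeR adjusted p = 0.0275), with 33.4% of its exon bases opposite Irf3 and Gm15545.

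Bcl2l2 and Bnip3l were the genes that rose. Bcl2l2, which encodes the antiapoptotic BCL-W, had 37.9, 39.4 and 41.5 CPM in verapamil libraries and 26.8 and 31.0 CPM in controls (log2 0.45, edgeR adjusted p = 0.0364). Bnip3l, a mitophagy receptor with a BH3-like region, had 201, 190 and 189 CPM with verapamil, against 139 and 130 CPM in controls (log2 0.52, edgeR adjusted p = 0.0106). On the same strand 13.3% of the exon bases of Bcl2l2 are shared with Gm20521. Except for Bok, these calls were lost without any 1 of the verapamil libraries. Those of Pmaip1 and Bcl2l2 were also lost with the replicate block, that of Bcl2l2 with upper quartile factors and that of Bmf with no filter (highest adjusted p of the 5 genes in any alternative 0.169). The genes not called were Bcl2a1a, Bcl2a1c, Bcl2a1d, Bcl2l13 and Bnip3, from -0.27 for Bnip3 to 0.88 for Bcl2a1c on the log2 scale. Bik, Hrk, Bcl2l14 and Bcl2l15 were too low to test, each under 0.5 CPM in every library.

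Downstream of mitochondria, 2 of 14 apoptosome and caspase genes were higher and 3 lower, with a median log2 fold change of 0.07 (35.7% called, beside 25.4% of all genes). Of this list 0 were called without any 1 of the verapamil libraries, 3 with the replicate block and 11 without control 3. Apaf1, the scaffold of the apoptosome, and Casp9, the caspase it activates, rose by 0.62 and 0.53 on the log2 scale (edgeR adjusted p = 0.0406 and 0.0222). Casp9 had 61.4, 59.3 and 54.8 CPM in verapamil libraries, against 37.7 and 43.5 CPM in controls. Cycs, the cytochrome c that binds APAF1, fell to 70.7 ± 3.20 CPM with verapamil, against 113 ± 25.6 CPM in controls (log2 -0.67, edgeR adjusted p = 0.0229). Casp6 and the nuclease gene Endog were the others that fell. All 5 calls were lost without any 1 of the verapamil libraries, that of Endog also without control 1, those of Casp6 and Casp9 with the replicate block, and that of Casp6 with the length trend removed.

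Of 9 inhibitor of apoptosis genes 33.3% were called, where 15.4% of all genes were lower and 9.99% higher. Of the 9, 3 were lower and 0 higher, although the median of the list was 0.46. That count varied: the replicate block called 3 higher and 3 lower, removal of the length trend 1 higher and 3 lower, and the fit without control 3 called 5 higher and 3 lower. Without any 1 of the verapamil libraries 1 was called, lower. Birc2 and Birc3, the ubiquitin ligases of TNF receptor signalling, fell by 0.62 each on the log2 scale (edgeR adjusted p = 0.0122 and 0.0308), calls lost without any 1 of the verapamil libraries. Birc5, better known for its role in mitosis, had 1.13, 1.498 and 1.08 CPM with verapamil and 6.38 and 4.48 CPM in controls (log2 -2.13, edgeR adjusted p = 0.00255). Summed cycling cell markers were lower beside it, at 61.4 to 69.1 CPM with verapamil and 88.0 and 100.1 CPM in controls, with 4 of 10 lower, 10 of 10 detected, and their part in this fall not tested. Xiap, the direct caspase inhibitor, differed between the controls (52.4 and 113 CPM) more than from the verapamil libraries (110, 132 and 132 CPM), and did not pass (edgeR adjusted p = 0.206).

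**Figure D5:**
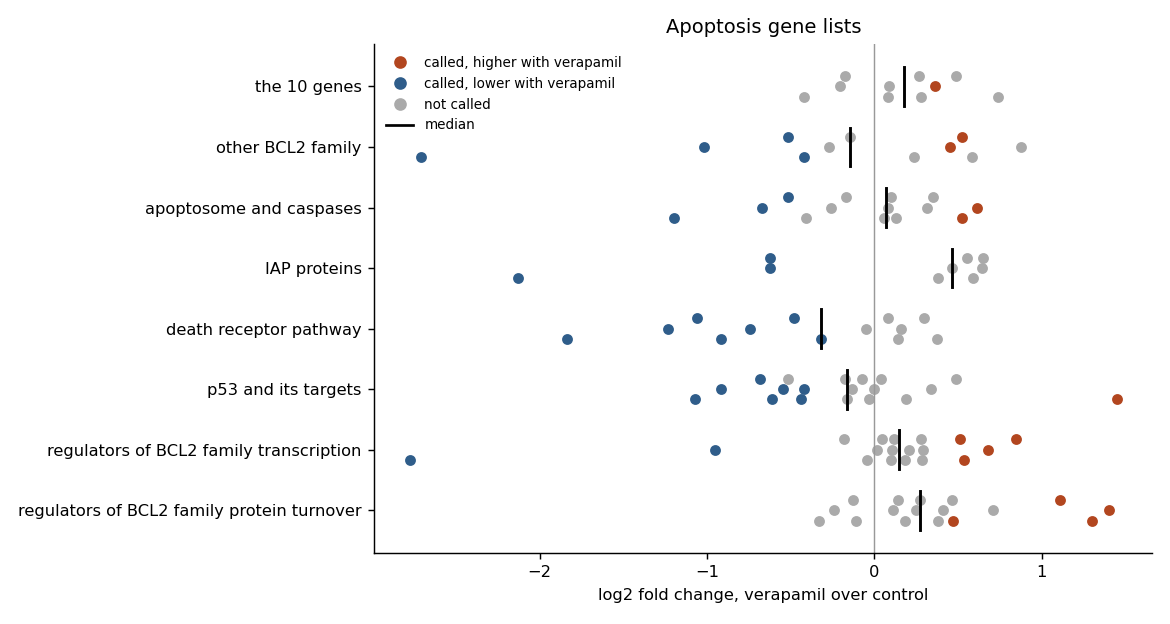
Log2 fold change of verapamil over control for every tested gene of the 10 and of 7 apoptosis lists, coloured by whether the gene passed, with list medians as black bars. The death receptor list has 7 genes lower and 0 higher, and the turnover list 4 higher and 0 lower.

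In the death receptor pathway 7 of 13 genes were lower and 0 higher, with a median of -0.32 (53.8% called, where 15.4% of all genes were lower and 9.99% higher). The lower count was 2 or 3 when 1 verapamil library was left out. DESeq2 called 2 of the list higher beside the 7 lower, as did the fit without control 1, and the fit without control 3 called 4 higher and 7 lower. Fas, the receptor that starts BID cleavage through caspase 8, had 13.8, 12.6 and 12.96 CPM in verapamil libraries, against 27.5 and 22.0 CPM in controls (log2 -0.91, SE 0.134, edgeR adjusted p = 0.00531). Ripk3 and Mlkl, which carry out necroptosis, fell by 1.23 and 0.48 (edgeR adjusted p = 0.00195 and 0.0200). The ligands Tnfsf10 and Tnf fell by 1.84 and 1.06 (edgeR adjusted p = 0.0145 and 0.0336), from low levels. Tnfsf10 had 0.285 CPM with verapamil and 1.03 CPM in controls (17 and 47 counts in all). Tnf had 1.73 and 3.62 CPM (104 and 165 counts). Casp8 itself had 70.7, 65.5 and 69.7 CPM with verapamil and 52.99 and 76.5 CPM in controls (log2 0.08, edgeR adjusted p = 0.728). The falls of Fas and Ripk3 were kept under all 12 alternatives, and those of Mlkl, Tnfsf10, Tnf and the receptor Tnfrsf10b were lost under at least 2. Summed macrophage markers were lower beside this list, at 6015 to 6188 CPM in verapamil libraries and 10082 and 9021 CPM in controls (14 of 14 detected). They did not move as one: of 13 tested 10 were lower, Cd68 and Mrc1 were not called, and Mertk was higher. Mertk had 322 ± 19.9 CPM with verapamil and 204 ± 55.5 CPM in controls (log2 0.66, edgeR adjusted p = 0.0404). The part of these markers in the death receptor list was not tested.

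Trp53 and its targets were lower in 7 of 19 and higher in 1 (42.1% called, beside 25.4% of all genes). The counts were 2 lower and 1 higher without any 1 of the verapamil libraries, and 8 lower and 5 higher without control 3. Trp53 had 47.0, 45.0 and 44.1 CPM with verapamil, against 75.2 and 63.7 CPM in controls (log2 -0.61, edgeR adjusted p = 0.0114), a call lost without any 1 of the verapamil libraries. Cdkn1a, the p21 inhibitor of cyclin-dependent kinases, had 133, 132 and 142 CPM with verapamil and 221 and 216 CPM in controls (log2 -0.68, SE 0.0897, edgeR adjusted p = 0.00360). Gadd45a, a stress gene with inducers besides p53, went the other way, with 267, 252 and 249.5 CPM in verapamil libraries and 109 and 78.0 CPM in controls (log2 1.45, SE 0.162, edgeR adjusted p = 0.00214). The list also holds Bbc3, Bax, Pmaip1 and Fas, whose values are given above. Bbc3 had higher values in the verapamil group, though it did not pass, and Trp53, Cdkn1a and Pmaip1 had lower ones. Within each group the libraries ranked alike for Bbc3 and Trp53, but 3 and 2 libraries are too few to read an order from. How these genes relate was not tested.

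Among regulators of transcription of the family 4 of 18 were higher and 2 lower (33.3% called, beside 25.4% of all genes). These were 1 higher and 2 lower without any 1 of the verapamil libraries, and 8 higher and 3 lower without control 3. Foxo4, a FOXO factor, had 32.3, 33.7 and 34.4 CPM in verapamil libraries and 16.8 and 20.4 CPM in controls (log2 0.85, edgeR adjusted p = 0.00574), while Foxo3 and Foxo1 did not pass (log2 0.12 and 0.18). Relb, a subunit of NF-kB, had 33.9, 36.1 and 35.8 CPM with verapamil and 74.7 and 61.9 CPM in controls (log2 -0.95, edgeR adjusted p = 0.00308). Fos, of AP-1, fell by 2.78, and its partner Jun rose by 0.54 (edgeR adjusted p = 0.000472 and 0.0169), the call of Jun lost without any 1 of the verapamil libraries. Letters of these factors' motifs were sought on both strands of the 250 bases before each RefSeq start (GRCm38.p6), of which the 10 genes have 16. The FOXO core GTAAACA was found for Bcl2l11 and Bbc3 (3.17% of all 32851 promoter windows hold it). The NF-kB form (GGG, any pair of bases, then TTTCC) was found for Mcl1, Bcl2l1 and Bbc3 (1.41% of windows). The AP-1 form TGACTCA was found for none (4.46% of windows). Finds are given by gene and percentages by window, and some genes have more than 1 window, so they do not compare directly. The matches are printed 5′ to 3′ on the gene's strand, with the motif in capitals (its reverse complement for all but Bcl2l11), as descriptions of the letters only.
Bcl2l11, FOXO, chr2:128125800-128125828, plus strand: aagacactaggGTAAACAcgccggggtgg
Bbc3, FOXO, chr7:16310083-16310111, plus strand: tctggcgggttTGTTTACaaacaatgggg
Bbc3, NF-kB, chr7:16309437-16309466, plus strand: ctggctgccgGGAAACCCCCcgcgccgagg
Mcl1, NF-kB, chr3:95658683-95658712, plus strand: ccagccctccGGAAACGCCCgcccctttcc
Bcl2l1, NF-kB, chr2:152830916-152830945, minus strand: tacgcctctcGGAAAAACCCgggagtggtc

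None of the 4 genes with a match passed the test.

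Genes that control the proteins after translation included 4 of 17 higher and 0 lower, with a median of 0.28 (23.5% called, beside 25.4% of all genes). The higher count was 3 without any 1 of the verapamil libraries, and without control 3 it was 12, beside 2 lower. Fbxw7, a ubiquitin ligase receptor that marks MCL1 for degradation, had 51.4, 57.0 and 56.2 CPM in verapamil libraries, against 25.1 and 25.8 CPM in controls (log2 1.11, SE 0.108, edgeR adjusted p = 0.00140). Cblb, of the Cbl family that ubiquitinates BIM, had 133, 152 and 151 CPM with verapamil and 48.4 and 69.5 CPM in controls (log2 1.30, SE 0.176, edgeR adjusted p = 0.00403). Pim1 and Akt1, kinases that can phosphorylate BAD, rose by 1.40 and 0.47 (edgeR adjusted p = 0.00118 and 0.0251). The rises of Fbxw7, Cblb and Pim1 were kept under all 12 alternatives, and that of Akt1 was lost with upper quartile factors, the replicate block or any verapamil library left out. Protein levels were not measured.

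The cultures could also hold cells rich in survival genes, such as granulocytes and lymphocytes. Granulocyte markers summed to 48.8 to 55.9 CPM in verapamil libraries and 45.8 and 48.5 CPM in controls (10 of 12 in the table, 5 tested, 1 higher and 2 lower), most of it Csf3r. The B cell list summed to 111 to 114 CPM with verapamil and 64.0 and 69.5 CPM in controls, nearly all from Cd22 (113 and 68.7 CPM in verapamil replicate 3 and control 3), with Blk at 0 and 4 others not analysed here. The T and NK cell list summed to 598 to 636 CPM with verapamil and 258 and 377 CPM in controls. Almost all of it came from Cd4 and Cd28. Of its 12 genes 6 were in the table, and Cd3d, Cd3e, Cd3g, Cd2, Trac and Ncr1 were not. Of 5 tested, 3 were higher (Cd4, Cd28 and Lck), Klrb1c was lower and Cd8a was not called. Lck was at 1.12 CPM with verapamil and 0.439 CPM in controls, and Klrb1c at 0.133 and 0.589 CPM. The class II and dendritic cell list summed to 136 to 141 CPM with verapamil and 202 and 170 CPM in controls, with 7 of 8 tested lower and 1 higher. The part of these cells in the values above was not tested.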

How the data were processed

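The authors deposited estimated counts of reads per gene for 5 libraries, with 2 decimals and, judged from the values, no normalization. The submitters' processing notes name GRCm38 and mm10. No source used here states the aligner, counting program, annotation or strand use. Per the labels' protocols, total RNA (1.3 ug) was made into libraries with a SMARTER mRNA kit. The table was mapped to samples by the library names in its headers.

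Counts were rounded, and genes were kept by the default filter of edgeR 4.0.16 in R 4.3.3 (minimum count 10, minimum total 15). TMM factors, a quasi-likelihood fit with group as the only term and the Benjamini-Hochberg method over all 12619 genes gave the tests, with 3 residual degrees of freedom. Standard errors were taken as the absolute log2 fold change over the root of the F statistic. The fit was tested on simulated data. Alternatives were upper quartile and RLE factors, other filters, DESeq2 1.42.0 and a replicate block. Further alternatives were removal of each library's trend on transcript length and the loss of each library. Transcript lengths were from GENCODE M21 (Python 3.11.15), and 246 tested genes without a length had no trend removed. In the replicate block verapamil 2 had no control with its number, so the group difference came from replicates 1 and 3.

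The 10 genes and all lists were chosen with earlier results of these data known. Named by rule were the 10, the tested genes of the other family list and, per list, called genes with the smallest p, up to 6. Values of Casp8, Xiap, Foxo1, Foxo3, Atp6v0d2, Mertk, Csf3r, Cd22, Cd4 and Cd28 were added after they were seen. Some items are not reported here.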

Additional observations from a re-analysis of the deposited data

How the results depend on the processing

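The number of genes called was 3200 with all libraries, 4928 with the length trend removed and 1460 to 7808 with 1 library left out. Of the 10 genes 1 was called. With upper quartile factors 0 of 10 were called (25.7% of all genes), with no filter 0 (18%), with a minimum count of 30 0 (24.5%), with DESeq2 3 (27.9%), with the length trend removed 4 (39.1%), and 0 to 7 with 1 library left out (11.6% to 60.9%). In the other apoptosis lists 37 of 96 tested genes were called, and 12 to 70 with 1 library left out. The difference in antiapoptotic share of 8.12 points was 5.95 with coding length. Under upper quartile factors the median over all genes was -0.13 (log2), beside -0.01, and 28.2% of calls were higher, beside 39.4%. That share was 45.5% both with DESeq2 and with the length trend removed, and 30.1% to 51.0% with 1 library left out.

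Directions turned for genes that had not passed. Bax was at 0.11 with the length trend removed and between -0.47 and 0.20 with 1 library left out. Bcl2l11 was at -0.036 with upper quartile factors, -0.064 with the length trend removed and between -0.065 and 0.25 with 1 library left out. Bak1 was at -0.036 with upper quartile factors, and Bad lay between -0.41 and 0.039 with 1 library left out. Bcl2a1a was at 0.010 with the replicate block, 0.18 with the length trend removed and between -0.34 and 0.078 with 1 library left out, and Bcl2l13 between -0.044 and 0.60. The causes were not tested.

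Of 35 called named genes, 12 kept the call under every alternative, 26 under the 7 that leave no library out, and 35 kept their sign. The replicate block is 1 of those 7, but in it verapamil 2 had no control with its number. That library then added nothing to the group difference, which came from replicates 1 and 3. With the replicate block 3317 genes were called, 1 of the 10 among them, which was Bcl2a1b (log2 0.84, adjusted p = 0.000309) and not Bid. The replicate numbers give no more than a shared label. Deviations from the group means correlated by 0.289 for the libraries numbered 1 and 0.0224 for those numbered 3. Verapamil 2 and control 3, which share no number, correlated by 0.289 too. With 2 controls their deviations mirror each other, so these values can neither show nor exclude pairing. Bcl2, the least abundant of the 10, had 427 counts over the verapamil libraries and 437 over the controls, and with 2 controls their spread is poorly known.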
